A study of Mus musculus with 12 samples.

Results

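Cadps2, Nptx2 and Srd5a2 were followed in mouse embryos at the start of head formation, in all tissue parts and genotypes that the series measured. They were picked by gene name because they read lower in anterior parts of Lhx1epiCKO embryos than in anterior parts of control embryos. The genotype difference in anterior parts therefore chose these genes, and it is given here as a description with no test. The 3 genes have 4 of the 30344 probes on the array, which carry 19060 gene names, and 3 of these 4 probes passed the filter of being above background on at least 3 of the 12 arrays.

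The embryos were collected at E7.75, between the early bud and early head-fold stages. Lhx1epiCKO embryos (Lhx1-/flox; Meox2+/Cre) carry 1 null and 1 conditional allele of Lhx1, a LIM-domain homeobox factor, and the conditional one is lost in the epiblast, where Meox2 drives Cre. Control embryos (Lhx1+/flox; Meox2+/Cre) carry the same Cre and the same conditional allele beside a wild-type one, so that cells with active Cre keep only the wild-type allele. The null allele is present in every tissue of Lhx1epiCKO embryos, also outside the epiblast. The groups were anterior Lhx1epiCKO, anterior control, posterior Lhx1epiCKO and posterior control, with 3 arrays each, and each array was hybridised with RNA pooled from 5 dissected parts of the epiblast region. The labels call these biological replicates.

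The proteins of these genes are best known from later organs. CADPS2 is a calcium-dependent priming factor of secretion that prepares dense-core vesicles for fusion, and in the brain it promotes the release of neurotrophins such as BDNF. NPTX2, also called Narp, is a secreted pentraxin that gathers AMPA-type glutamate receptors at excitatory synapses. SRD5A2 is a steroid 5-alpha-reductase that turns testosterone into the stronger androgen dihydrotestosterone, and it is known for its part in male genital development. None of these roles was measured here. The anterior part of the embryo at this stage holds the presumptive brain ectoderm and the mesendoderm beneath it, and the posterior part holds the primitive streak and the mesoderm that leaves it.

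Each array was checked before the genes were read. The Lhx1 probe read 6.84, 6.65 and 7.09 in anterior Lhx1epiCKO parts, against 8.13, 8.25 and 8.44 in anterior control parts (log2 signal). In posterior parts it read 6.85, 7.18 and 7.30 in Lhx1epiCKO, against 8.54, 6.90 and 8.35 in control, so the array labelled posterior control replicate 2 lay within the range of posterior Lhx1epiCKO and went against its label. The position of this probe relative to the deletion was not determined. On the array labelled posterior Lhx1epiCKO replicate 3, 785 probes were over 1 log2 unit away from the mean of its group's remaining arrays, against 0 to 279 on any other array. Anterior arrays had 15416 to 16238 probes above background and posterior arrays 14243 to 14869. The labels give embryonic head as the tissue of all 12 samples. Six3, Rax, Lhx2 and Pax6, which mark the forming forebrain and eye, were not above background on any array. They belong to a list of 13 anterior neuroectoderm markers, of which 6 to 8 were above background on at least 1 array of each group. With 3 arrays a group, the number of arrays sets the precision.

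Cadps2 was highest in the anterior control parts. Its bright probe (ILMN_2998313) read 7.751, 7.60 and 7.68 on the anterior Lhx1epiCKO arrays, against 8.63, 8.92 and 8.33 on the anterior control arrays (normalised log2 signal). In posterior parts it read 7.15, 7.03 and 7.18 in Lhx1epiCKO, against 7.18, 7.21 and 7.22 in control. It was above background on all 12 arrays, and the anterior Lhx1epiCKO arrays lay between the anterior control arrays and the 6 posterior arrays with no overlap on either side. A second Cadps2 probe (ILMN_2590164) read 6.41 to 6.78, was not above background on any array and so gave no level.

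Nptx2 had the same order of groups, but with less room between the lower ones. Its only probe (ILMN_2620406) read 8.14, 7.86 and 8.37 on the anterior Lhx1epiCKO arrays, against 8.99, 8.95 and 9.07 on the anterior control arrays. In posterior parts it read 7.71, 7.77 and 7.90 in Lhx1epiCKO, against 7.999, 7.752 and 8.15 in control. All 12 arrays were above background. The anterior control arrays stood alone at the top, and the anterior Lhx1epiCKO arrays overlapped both posterior groups.

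Srd5a2 was the dimmest case, and its signal was measurable almost only in anterior control parts. Its only probe (ILMN_2633091) read 6.72, 6.68 and 6.82 on the anterior Lhx1epiCKO arrays, against 7.59, 7.38 and 7.35 on the anterior control arrays. It was above background on 1 of the 3 anterior Lhx1epiCKO arrays, replicate 3, and on all 3 anterior control arrays. In posterior parts it read 6.52, 6.59 and 6.504 in Lhx1epiCKO, against 6.51, 6.44 and 6.69 in control, and none of these 6 arrays was above background. Those posterior values have no order among them.

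**Figure D1:**
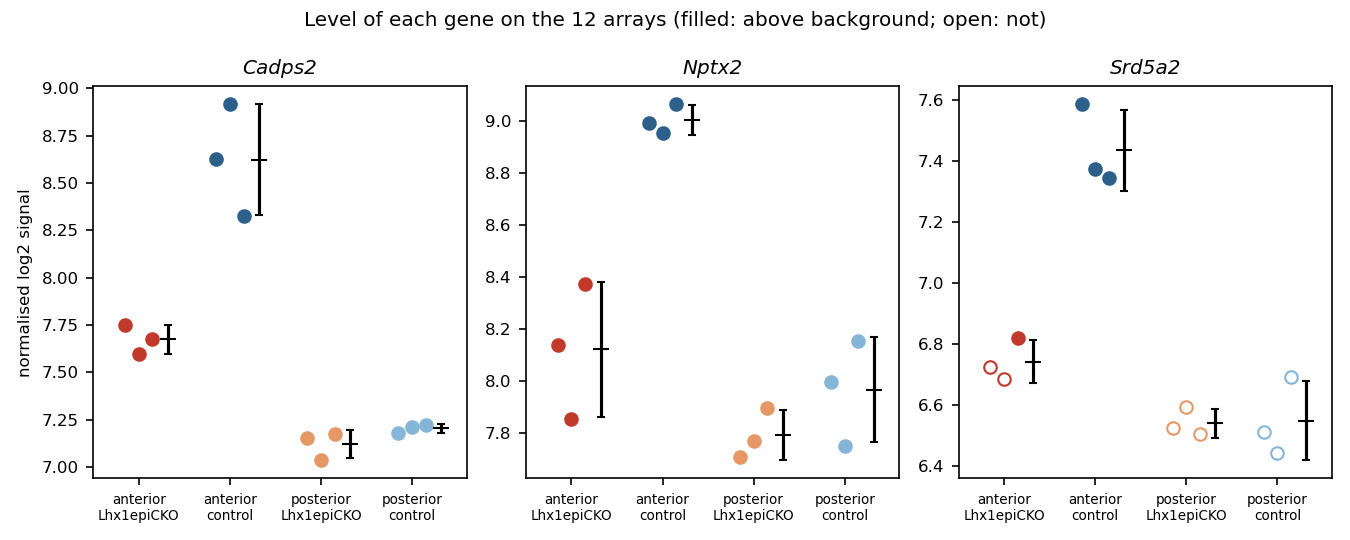
Normalised log2 signal of the bright Cadps2 probe, the Nptx2 probe and the Srd5a2 probe on each array (points, filled where above background) with the group mean and SD (black, n = 3), and a separate axis for each gene. The anterior control arrays lie above all other arrays in each panel, and Srd5a2 is above background on 1 anterior Lhx1epiCKO array and on no posterior array.

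In anterior parts, the comparison that chose the genes, Cadps2 averaged 7.68 ± 0.08 in Lhx1epiCKO and 8.62 ± 0.29 in control (log2, SD, n = 3 each). Lhx1epiCKO minus control gave -0.95 ± 0.13 (log2, SE), or 1.93-fold lower. Nptx2 averaged 8.12 ± 0.26 in Lhx1epiCKO and 9.004 ± 0.057 in control, a difference of -0.88 ± 0.14, or 1.84-fold lower. Srd5a2 averaged 6.74 ± 0.07 in Lhx1epiCKO and 7.44 ± 0.13 in control, a difference of -0.69 ± 0.10. Only 1 of the 3 Lhx1epiCKO arrays measured Srd5a2 above background, so the fold of 1.62 is a value from the fitted means and is compressed by the background. In each gene the 3 Lhx1epiCKO arrays lay below the 3 control arrays, as did 6.48% of all probes tested, and 0.0469% of the probes tested were lower at an adjusted p under 0.05. The samples are bulk tissue, in which fewer cells of a type and less RNA per cell cannot be told apart.

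Other measures differed between the same arrays. The summed level of 13 anterior neuroectoderm markers was 11.72 to 11.90 in anterior Lhx1epiCKO and 12.61 to 12.73 in anterior control parts (log2 of the summed signal), with 6 and 7 of the 13 above background. For all sums here, a marker was counted as above background if it was so on at least 1 array of the group. That of 9 anterior mesendoderm markers was 11.03 to 11.09 in anterior Lhx1epiCKO and 11.54 to 11.63 in anterior control parts, with all 9 above background in both. These 9 include Lhx1, the targeted gene, which was above background on 2 of the 3 anterior Lhx1epiCKO arrays. Lhx1 averaged 6.86 in anterior Lhx1epiCKO and 8.27 in anterior control parts. The difference of this sum is therefore not independent of the genotype itself. Primitive streak and posterior mesoderm markers went the other way, at 12.50 to 13.38 in anterior Lhx1epiCKO and 11.97 to 12.21 in anterior control parts, with all 11 above background in both. Visceral endoderm markers, 8 on the array and all above background, overlapped at 15.29 to 15.31 in anterior Lhx1epiCKO and 15.20 to 15.33 in anterior control parts. The 5 primitive blood markers were at 10.01 to 10.28 in anterior Lhx1epiCKO and 9.45 to 9.57 in anterior control parts. In each group 4 of them were above background, all but Hba-x in anterior Lhx1epiCKO and all but Hbb-y in anterior control parts. Cardiac mesoderm markers, 4 of 5 above background, were at 10.28 to 10.44 in anterior Lhx1epiCKO and 10.50 to 10.85 in anterior control parts, and the 5 definitive endoderm markers, all above background, at 14.99 to 15.02 in anterior Lhx1epiCKO and 15.08 to 15.13 in anterior control parts. Endothelium, trophoblast and surface ectoderm sums overlapped. Xist, the X-inactivation RNA of female cells, read 8.39, 6.57 and 8.65 on its brightest probe in anterior Lhx1epiCKO and 9.90, 10.47 and 10.28 in anterior control parts, so the pools also differed in this sign of embryo sex. The part of these tissue and sex markers in the lower Cadps2, Nptx2 and Srd5a2 signal was not tested.

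The posterior parts gave the genotype comparison that the choice of genes did not use. There Cadps2 and Nptx2 did not pass the test between Lhx1epiCKO and control at a Benjamini-Hochberg adjusted p under 0.05 in limma's moderated test. Of the 17041 probes tested, 0% passed, with 1643 at an unadjusted p under 0.05, 5% of all probes higher and 4.64% lower. Cadps2 averaged 7.12 ± 0.08 in posterior Lhx1epiCKO and 7.20 ± 0.02 in posterior control parts (SD, n = 3 each). The difference was -0.08 ± 0.13 (SE), with a 95% interval of -0.36 to 0.20 and an adjusted p of 0.843. All 3 Lhx1epiCKO arrays were below the 3 control arrays, by very little between the nearest pair, and 4.68% of all probes showed such a gap in that direction.

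Nptx2 averaged 7.79 ± 0.10 in posterior Lhx1epiCKO and 7.97 ± 0.20 in posterior control parts, and the groups overlapped. Its difference was -0.18 ± 0.14, with a 95% interval of -0.47 to 0.12 and an adjusted p of 0.658. Without the array labelled posterior control replicate 2 it was -0.28 (adjusted p = 0.598), without both doubted posterior arrays -0.34 (adjusted p = 0.422), and without posterior control replicate 3 -0.08 (adjusted p = 0.881). Srd5a2 was not above background in either posterior group, so no fold is given. Its fitted difference of -0.01 ± 0.10 describes signals at background and has no test.

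The anterior genotype difference minus the posterior one was -0.87 ± 0.18 for Cadps2, -0.70 ± 0.19 for Nptx2 and -0.69 ± 0.15 for Srd5a2 (log2, SE). These differences contain the comparison that chose the genes and have no test. Srd5a2 was above background on 1 of the 3 anterior Lhx1epiCKO arrays and on no posterior array, so its value rests largely on signals at background.

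Along the axis of control embryos, Cadps2 and Nptx2 were higher in anterior than in posterior parts, and Srd5a2 had a signal above background only in the anterior ones. Cadps2 was higher by 1.42 ± 0.13 (log2, SE), or 2.68-fold, with a 95% interval of 1.140 to 1.6997 and an adjusted p of 3.26e-05. This was the 19th largest positive difference among the 17041 probes. Nothing is read from this rank, since the anterior control arrays helped to choose the gene. Nptx2 was higher by 1.04 ± 0.14, or 2.05-fold (adjusted p = 0.000796). The Srd5a2 probe passed the filter through the 3 anterior control arrays, where it is high and which helped to choose it, so its difference of 0.89 ± 0.10 is a description with no test. Its signal on the posterior arrays was not above background, and set against the lowest signal above background there the anterior level was at least 1.51-fold higher.

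Cadps2 and Nptx2 passed the test, where 1.36% of all probes were called higher in anterior parts. The anterior control arrays also took part in choosing the genes, which favours high values on them, so these adjusted p-values are not independent of the choice and nothing is read from that count. In each gene the 3 anterior arrays lay above the 3 posterior arrays, as did 13.3% of all probes. Without the array labelled posterior control replicate 2 the differences were 1.42 for Cadps2 (adjusted p = 0.000418), 0.93 for Nptx2 (0.00573) and 0.83 for Srd5a2. Anterior arrays also had more probes above background than posterior arrays, by the counts given above, and the part of this in the regional differences was not tested.

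In Lhx1epiCKO embryos the same regional difference was smaller in value for each gene. Cadps2 and Nptx2 did not pass the test in limma at an adjusted p under 0.05. At an unadjusted p under 0.05 Cadps2 and Nptx2 passed, as did 6.87% of all probes in that direction. Of all probes, 0.417% were called higher in anterior parts of these embryos. Cadps2 read 0.55 ± 0.13 higher in anterior parts (95% interval 0.27 to 0.83, adjusted p = 0.0628), with no overlap between the groups, a gap in that direction shown by 10.6% of all probes. It passed without the array labelled posterior Lhx1epiCKO replicate 3 (0.58, adjusted p = 0.0386). It also passed without anterior control replicate 2 or 3, which count here only in the shared estimate of the spread (adjusted p = 0.0306 and 0.0236). In 19 of 23 alternative fits it did not pass, with an adjusted p of 0.312 without anterior Lhx1epiCKO replicate 1.

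Nptx2 read 0.33 ± 0.14 higher in anterior parts of Lhx1epiCKO embryos, with overlapping groups (95% interval 0.03 to 0.63, adjusted p = 0.347), and 0.21 without anterior Lhx1epiCKO replicate 3 (adjusted p = 0.746). Srd5a2 read 0.20 ± 0.10 (95% interval -0.02 to 0.43). This is a description with no test, since its probe passed the filter through the anterior control arrays. Its 3 anterior values lay above its 3 posterior values, 1 of the 6 was above background, and no fold is given. The anterior Lhx1epiCKO arrays took part in choosing the genes, which favours low values on them and so small regional differences here. The change of the regional difference between the genotypes is the same quantity as the -0.87, -0.70 and -0.69 given above.

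**Figure D2:**
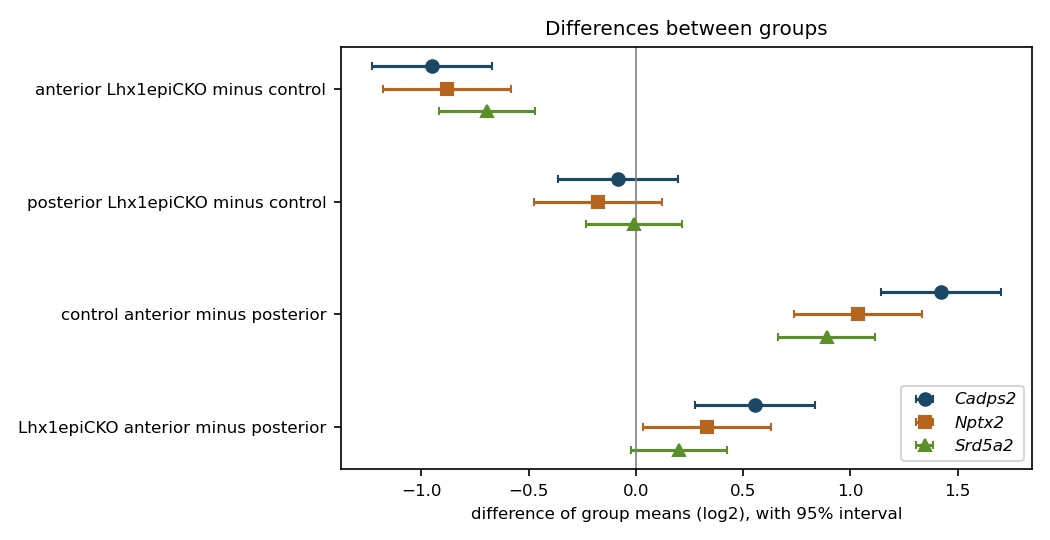
Difference of group means on the log2 scale for each gene in 4 comparisons, with 95% intervals from the limma fit of 12 arrays. The anterior genotype differences, which chose the genes, lie from -0.95 to -0.69, the posterior ones from -0.18 to -0.01, the regional differences in control embryos from 0.89 to 1.42 and those in Lhx1epiCKO embryos from 0.20 to 0.55. Srd5a2 was above background on 1 anterior Lhx1epiCKO array and on no posterior array.

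The start regions of Cadps2 and Srd5a2 are shown because both genes were highest on the anterior control arrays while their start regions differ in CpG content. Nptx2 was also highest there, but no start region was available for it. Each sequence is the 250 bases before the start in RefSeq, build GRCm38.p6, 5′ to 3′ on the minus strand, with capitals at CpG dinucleotides. The Cadps2 stretch lies at chr6:23839422-23839671 and the Srd5a2 stretch at chr17:74047861-74048110.
Cadps2: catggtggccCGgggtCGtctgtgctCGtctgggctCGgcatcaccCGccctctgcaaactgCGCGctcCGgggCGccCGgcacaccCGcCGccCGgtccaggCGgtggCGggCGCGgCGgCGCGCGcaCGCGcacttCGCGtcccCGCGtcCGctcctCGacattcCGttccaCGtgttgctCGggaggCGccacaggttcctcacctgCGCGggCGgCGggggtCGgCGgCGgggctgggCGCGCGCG
Srd5a2: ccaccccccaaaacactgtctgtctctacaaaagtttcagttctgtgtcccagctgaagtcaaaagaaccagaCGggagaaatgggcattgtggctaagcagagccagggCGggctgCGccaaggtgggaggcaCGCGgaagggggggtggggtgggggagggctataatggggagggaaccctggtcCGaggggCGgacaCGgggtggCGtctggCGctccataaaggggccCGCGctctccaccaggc
The Cadps2 stretch holds 44 CpG dinucleotides at 78.0% G and C, more CpG than 99.5% of the 32851 start regions in the table. The Srd5a2 stretch holds 12 at 63.2%, more than 66.5% of them, and the median start region held 6 at 52.4%.

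4 short motifs were looked for on both strands, from 250 bases before to 50 bases after the start. TAATTA, a core that LIM and many other homeodomains bind, reads the same on both strands and occurred in 5.29% of all start regions. TAATCC, the core of OTX and Goosecoid, occurred in 7.06%. CTTTGA and CTTTGT, cores of TCF and LEF factors, occurred in 5257 and 6147 of the 32851 regions. None of these letters stood in the Cadps2 or the Srd5a2 region, nor in the 250 bases before the start alone. This says only that they are absent from these windows.

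**Figure D3:**
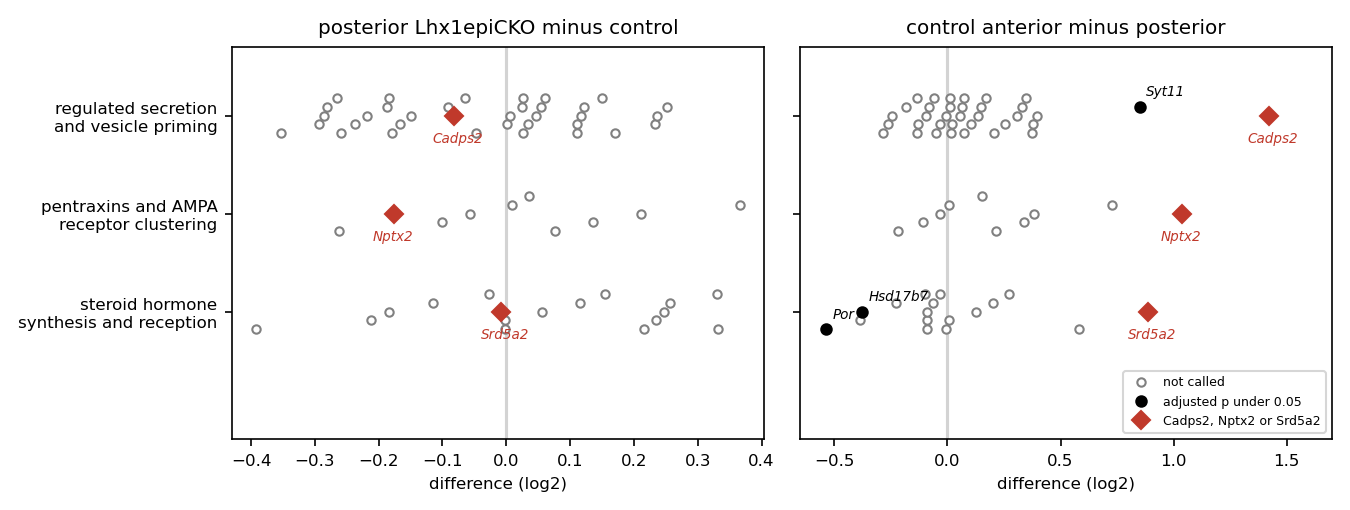
Differences on the log2 scale between posterior Lhx1epiCKO and posterior control parts (left) and between anterior and posterior control parts (right) for the measured genes of 3 pathway lists (circles, filled where the adjusted p is under 0.05), with Cadps2, Nptx2 and Srd5a2 as diamonds. In the right panel the 3 diamonds, at 0.89 to 1.42, lie to the right of all members of their own lists. The anterior control arrays helped to choose these 3 genes and not the list members, so nothing is read from this position.

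CADPS2 acts within the machinery of regulated secretion, and a list of 51 genes of vesicle priming, fusion and cargo was read beside it. Of these, 34 were tested. In anterior against posterior control parts 1 rose and 0 fell, beside 1.36% and 1.65% of all probes, and 7 and 2 did so at an unadjusted p under 0.05, beside 7.77% and 5.2% of all probes. The median difference was 0.04, against 0.02 over all probes. The gene that rose was Syt11, a synaptotagmin of vesicle traffic, at 10.80 ± 0.12 in anterior and 9.95 ± 0.29 in posterior control parts (SD, n = 3 each). Its difference of 0.85 ± 0.21 (adjusted p = 0.0486) was no longer called without any 1 of 9 arrays, with adjusted p up to 0.199, and a second Syt11 probe read 0.07 ± 0.13 (adjusted p = 0.916).

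Cadps, the close relative of Cadps2 in the same priming step, read 7.12 ± 0.06 in anterior and 7.11 ± 0.38 in posterior control parts. It was above background on all 3 anterior control arrays and on 2 of the 3 posterior control arrays. Its difference was 0.01 ± 0.16, with a 95% interval of -0.33 to 0.35. In anterior parts Cadps read 7.03 ± 0.09 in Lhx1epiCKO and 7.12 ± 0.06 in control, with overlapping groups. In the posterior genotype comparison 0 of the 34 genes passed in limma, and the median was 0.00 (0.01 over all probes). At an unadjusted p under 0.05, 0 were higher and 3 lower, beside 5% and 4.64% of all probes. In the anterior one 0 passed, with 0 higher and 1 lower at an unadjusted p under 0.05, beside 0.927% and 1% of all probes.

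NPTX2 was read beside 20 genes of pentraxins, AMPA receptor subunits and proteins that hold these receptors at synapses. Only 9 of the 20 passed the filter. The other members of the pentraxin family on the list, Nptx1, Nptxr, Ptx3, Apcs and Crp, did not pass it. In anterior against posterior control parts 0 of the 9 passed in limma, with 3 higher and 0 lower at an unadjusted p under 0.05, beside the 7.77% and 5.2% of all probes. The median was 0.16, against 0.02 over all probes. The largest value was that of Cbln1, a secreted synapse organiser, at 0.73 ± 0.30 (adjusted p = 0.307), a gene named after its value was seen. In the genotype comparisons 0 of the 9 passed. At an unadjusted p under 0.05, 1 was higher and 0 lower in posterior parts, beside 5% and 4.64% of all probes. In anterior parts 0 were higher and 0 lower, beside 0.927% and 1% of all probes.

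SRD5A2 was read beside 36 genes of steroid synthesis and reception, of which 16 passed the filter. Genes that make steroids from cholesterol, Star, Cyp11a1 and Cyp17a1, did not pass it. In anterior against posterior control parts 0 of the 16 rose and 2 fell, Por and Hsd17b7, beside 1.36% and 1.65% of all probes. At an unadjusted p under 0.05 they were 1 and 3, beside 7.77% and 5.2% of all probes, and the median was -0.08, against 0.02 over all probes. Por, the electron donor of microsomal P450 enzymes, read 8.80 ± 0.10 in anterior and 9.34 ± 0.12 in posterior control parts, a difference of -0.54 ± 0.11 (adjusted p = 0.0141). It was also lower in anterior than in posterior parts of Lhx1epiCKO embryos, at -0.60 ± 0.11 (adjusted p = 0.0120), the only call of the list there, beside 0.851% of all probes lower. Its other probes read -0.54 ± 0.13 (adjusted p = 0.0432) and 0.15 ± 0.09 (adjusted p = 0.563) in control embryos, so the Por probes disagreed.

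Both Por calls and that of Hsd17b7 depended on single arrays. The Por call in control embryos ended without anterior control replicate 3 (adjusted p = 0.0746) or posterior control replicate 3 (0.0605), and the one in Lhx1epiCKO embryos without anterior Lhx1epiCKO replicate 1 (0.0942) or 3 (0.0706). Hsd17b7, an enzyme of cholesterol and estrogen synthesis, read -0.38 ± 0.09 (adjusted p = 0.0440), and lost its call without any 1 of 9 arrays, with adjusted p up to 0.208.

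Srd5a1, which carries out the same reduction as Srd5a2, read 7.36 ± 0.23 in anterior and 7.16 ± 0.14 in posterior control parts, a difference of 0.20 ± 0.13 (95% interval -0.08 to 0.48, adjusted p = 0.595). Srd5a3, known for making dolichol for protein glycosylation, read -0.09 ± 0.15 on its brightest probe and 0.15 and -0.05 on the other probes. Tecr, a related reductase of very long fatty acid synthesis, read -0.06 ± 0.13 on its brightest probe and 0.06 and 0.07 on the others, so the probes of both genes differed in sign. In the posterior genotype comparison 0 of the 16 genes passed in limma. At an unadjusted p under 0.05, 2 were higher and 1 lower, beside 5% and 4.64% of all probes. In the anterior one 0 passed, with 1 higher and 0 lower at an unadjusted p under 0.05, beside 0.927% and 1% of all probes.

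Over the 12 arrays, the signals of Cadps2, Nptx2 and Srd5a2 followed one another. Pearson's r was 0.96 between Nptx2 and Srd5a2, 0.946 between Cadps2 and Srd5a2 and 0.921 between Cadps2 and Nptx2. No other probe of the 17041 had a higher r with Nptx2 than Srd5a2 did. These values describe arrays that fall into 4 groups and share the rise in anterior control parts through which the genes were chosen.

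The 5 genes most like each of them by Pearson's r, 1 probe a gene, were read from the same 12 arrays. For Cadps2 they were Parm1 (a mucin-like membrane protein), the WNT receptor gene Fzd5, Shisa2, the secreted WNT inhibitor Sfrp1 and the forkhead factor Foxd4, with r from 0.948 to 0.977. For Nptx2 they were Srd5a2, the chloride cotransporter gene Slc12a2, Fzd5, the secreted kinase gene Pkdcc and Foxd4, with r from 0.933 to 0.96. For Srd5a2, 4 of them are given, Fzd5, Nptx2, Shisa2 and Parm1, with r from 0.957 to 0.974. Fzd5 was on all 3 lists.

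Fzd5 read 8.78 ± 0.18 in anterior Lhx1epiCKO and 10.14 ± 0.26 in anterior control parts (log2, SD, n = 3 each). In posterior parts it read 8.37 ± 0.08 in Lhx1epiCKO and 8.26 ± 0.12 in control. Parm1 read 8.45 ± 0.08 in anterior Lhx1epiCKO and 8.95 ± 0.08 in anterior control parts, and 8.11 ± 0.10 and 8.12 ± 0.03 in posterior Lhx1epiCKO and posterior control parts. Slc12a2 read 8.99 ± 0.04 in anterior Lhx1epiCKO and 9.38 ± 0.09 in anterior control parts. Each of these probes, like the 3 genes, was highest in anterior control parts.

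The choice of the 5 depended on the measure. By Spearman's rho 0 of the genes given stayed among the 5 most alike for any of the 3 genes, although their rho ran from 0.734 to 0.937. Without both doubted posterior arrays, over 10 arrays, 4 of the 5 stayed for Cadps2, 2 of the 5 for Nptx2 and 3 of the 4 given for Srd5a2.

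**Figure D4:**
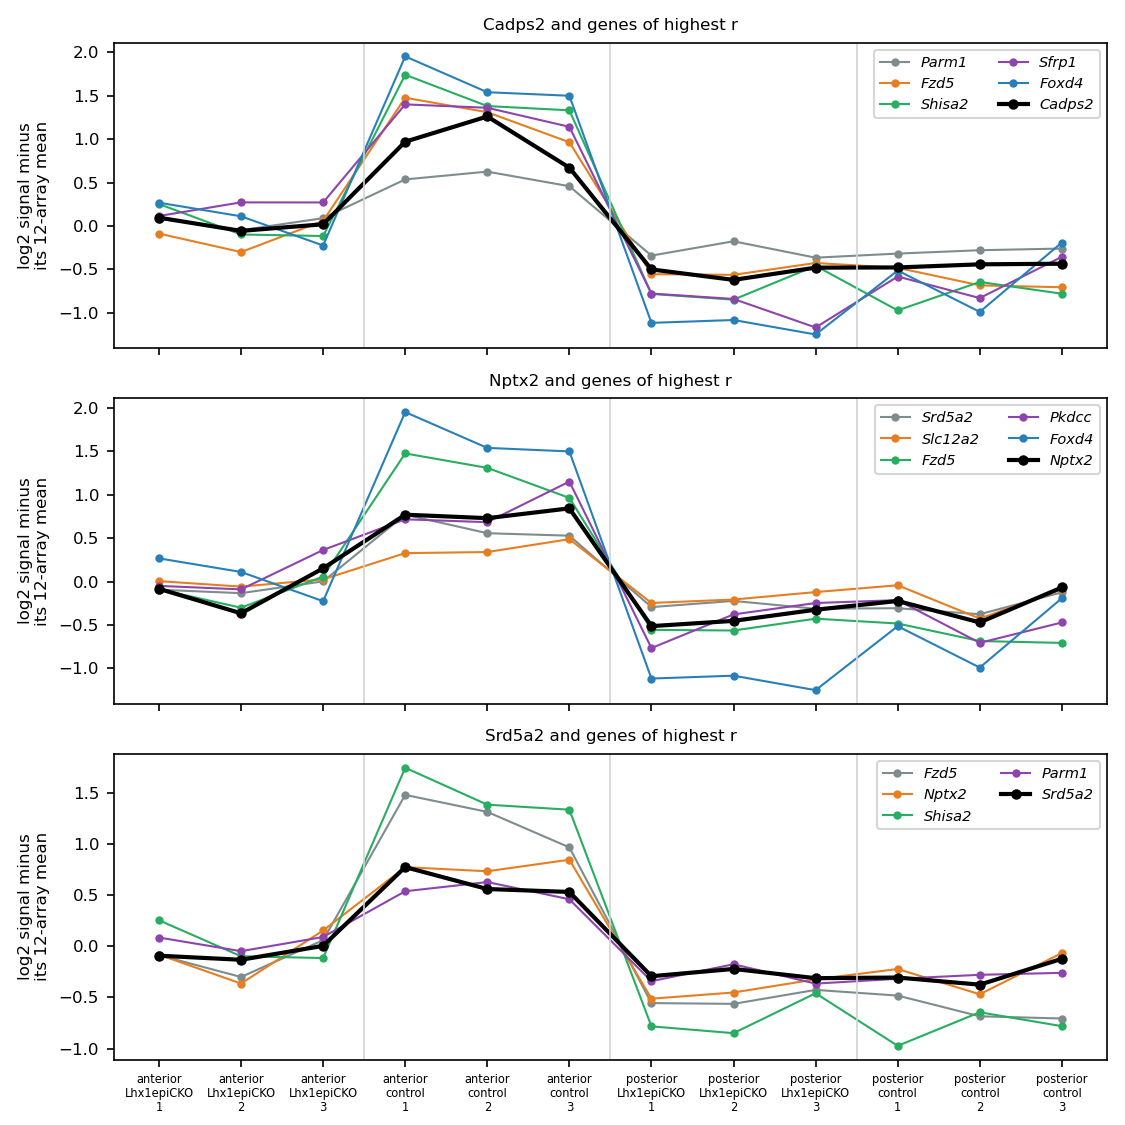
Log2 signal minus its mean over the 12 arrays for Cadps2, Nptx2 and Srd5a2 (black) and the genes of highest Pearson's r with each (colours, 5 for Cadps2 and Nptx2 and 4 for Srd5a2), by array; lines only join the points of a gene. All genes shown are highest on the 3 anterior control arrays.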

How the data were processed

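The authors deposited normalized log2 expression values, and the submitters' processing notes name GenomeStudio and limma. The methods of background correction and normalization are not given in the sources used here. Array medians lay between 6.81 and 6.83. The deposited table also holds detection p-values, and a signal was called above background at a detection p under 0.05.

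Probes above background on at least 3 of 12 arrays were kept, which left 17041. The 12 arrays entered 1 fit of the 4 group means on the deposited values (limma 3.58.1, R 4.3.3). Adjusted p-values are Benjamini-Hochberg, two-sided, over all 17041 probes. The fit had 8 residual and 4.87 prior degrees of freedom, and it was tested on simulated data.

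Gene names were taken from the file. The platform annotation gave 28034 probes 1 symbol, 0 several and 2310 none, and 324 probes whose platform symbol named another gene were not named. Where a gene had several probes passing the filter, the brightest stood for it. A fold is 2 to the power of a log2 difference and understates changes of dim probes. A fold given as "at least" sets the bright mean against the lowest signal above background on the dim arrays, or the probe's own where higher, and takes no account of sampling error.

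The 3 genes and the pathway lists were chosen with earlier results of these data known. The relatives of the 3 genes were always named, other list genes where called, and the 5 most alike genes by Pearson's r, of which 1 is not reported here.

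Alternatives changed the filter, the arrays in the fit, the offset, array weights and blocks, and left out single arrays. The labels do not say whether same-numbered pools share embryos. Deviations of same-numbered arrays from their group means correlated at -0.041 to 0.246 between groups (0.068, 0.246 and 0.079 between the regions of Lhx1epiCKO embryos), not above 0.1 in every pair, so the numbers were not used as pairs.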

Additional observations from a re-analysis of the deposited data

How the results depend on the processing

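Across up to 23 alternatives a comparison, the anterior genotype differences ranged from -1.10 to -0.80 for Cadps2, -1.01 to -0.75 for Nptx2 and -0.74 to -0.62 for Srd5a2. The regional calls of Cadps2 and Nptx2 in control embryos held in all 23, at 1.27 to 1.58 and 0.93 to 1.13, with adjusted p up to 0.00624, and the Srd5a2 difference was 0.79 to 0.96. Each of these fits uses anterior control arrays that helped to choose the genes, so nothing is read from the calls having held. The Nptx2 genotype difference in posterior parts ran from -0.34 to -0.083, and its regional difference in Lhx1epiCKO embryos from 0.21 to 0.46. In Lhx1epiCKO embryos the Cadps2 regional difference passed without both doubted posterior arrays (0.58, adjusted p = 0.0474), and leaving out single arrays it ran from 0.51 to 0.59 with adjusted p from 0.0236 to 0.312. In posterior parts the Srd5a2 genotype difference, between signals not above background, was 0.0018 with array weights and -0.061 to 0.065 leaving out single arrays, with the sign changing; the causes of these changes were not tested. With the replicate number as a block, the Cadps2 regional difference was 1.42 in control (adjusted p = 0.000154) and 0.55 in Lhx1epiCKO embryos (0.100), and no call of Cadps2 or Nptx2 changed. The Por, Syt11 and Hsd17b7 calls in control embryos ended with genotype and number as the block (0.0535, 0.0718 and 0.135). That of Hsd17b7 also ended with the number alone (0.0771). The Por call in Lhx1epiCKO embryos ended with genotype and number as the block (0.0518). The count of all probes called ran from 2 to 246 around 12 in the anterior and from 0 to 4 around 0 in the posterior genotype comparison, and from 276 to 1013 around 513 and from 64 to 425 around 216 in the regional comparisons of control and Lhx1epiCKO embryos. Dim signal limits Srd5a2, which has a measured level in anterior control parts and on 1 other array.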

Other observations

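The Xist signal of an anterior and a posterior array of the same number was close in Lhx1epiCKO embryos and not in every control pair. On its brightest probe it read 8.39, 6.57 and 8.65 in anterior and 8.24, 6.71 and 9.06 in posterior Lhx1epiCKO parts, for replicates 1, 2 and 3. In control embryos it read 9.90, 10.47 and 10.28 in anterior and 10.09, 7.72 and 9.83 in posterior parts. The array labelled posterior control replicate 2, which was low for Lhx1, was thus also low for Xist. The Y-linked gene Eif2s3y read 8.92 on it against 8.33 and 7.91 on the other posterior control arrays, and Kdm5d 7.48 against 6.934 and 6.885. A probe of Uty, also Y-linked, went the other way, at 6.81 (not above background) against 6.98 and 7.16. The Ddx3y probes and a second Uty probe were above background on 0 or 1 of these arrays. These genes were named after their values were seen.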
